A study of Homo sapiens with 6 samples.

Results

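The genes of the mitochondrial ribosomal proteins were examined in HGC27 cells that overexpressed the FN1 3′-UTR. Members were all rows of the deposited gene tables whose symbol was MRPL or MRPS followed by a number and at most a letter from A to C, which left out the pseudogenes of the family. This gave 78 of the 39739 listed genes, 49 of them named for the large subunit and 29 for the small subunit. The mitochondrial ribosome is built in the mitochondrial matrix from ribosomal RNAs encoded by mitochondrial DNA and from proteins encoded in the nucleus and imported. It translates the few mRNAs of the mitochondrial genome, which encode subunits of the respiratory chain and the ATP synthase. Its large subunit carries the peptidyl transferase centre and its small subunit the decoding centre, and many of its proteins have no counterpart in bacterial ribosomes.

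The study compared RNA-seq libraries of HGC27-FN1 3′-UTR cells (n = 3) and HGC27-control cells (n = 3) to find genes that change when the untranslated end of the fibronectin 1 mRNA is overexpressed. HGC27 is a human gastric cancer cell line. The HGC27-FN1 3′-UTR cells received the construct through lentiviral infection and were selected with puromycin as a stable population, and HGC27-control cells are the control line. Both lines grew in the same RPMI-1640 medium with fetal bovine serum. The labels do not say whether replicates were separate cultures, so the p-values measure only the spread between these libraries, which may be technical. In bulk RNA, fewer cells of a kind and less RNA per cell cannot be told apart.

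Reads assigned to genes numbered 16357085 to 29202046 per library of HGC27-FN1 3′-UTR and 22332816 to 37037532 per library of HGC27-control. FN1 itself, the gene whose 3′-UTR was expressed, was at 0.777, 0.745 and 0.819 RPKM in HGC27-FN1 3′-UTR and at 0.543, 0.474 and 0.532 RPKM in HGC27-control. RPKM is the number of reads per kilobase of a gene's merged exons and per 1000000 assigned reads. The mesenchymal marker VIM was at 286 to 324 RPKM in the 6 libraries, while the leukocyte marker PTPRC stayed at or under 0.0164 RPKM and the endothelial marker PECAM1 was listed at 0 in all 6. All 5 epithelial markers (EPCAM, CDH1, KRT8, KRT18 and KRT19) were higher in every HGC27-FN1 3′-UTR library than in any control library, and their summed level was 18.2 to 27.0 RPKM against 2.59 to 2.99 RPKM. The gastric mucosa markers MUC5AC, MUC6, TFF1 and CLDN18 summed to at most 0.238 RPKM in any library. Of the fibroblast markers, COL1A1 and DCN were higher in all HGC27-FN1 3′-UTR libraries and PDGFRB was not, and the 3 together summed to 46.1 to 47.7 RPKM against 29.4 to 36.7 RPKM. The part of these shifts in the results was not tested.

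All 78 members were measured in every library and entered the fit. On the RPKM scale, which allows levels of different genes to be set side by side, the median member had a mean of 20.1 RPKM over the 6 libraries, against 2.04 RPKM for the 23299 genes tested. The median was 21.0 RPKM for large subunit genes and 15.3 RPKM for small subunit genes. Replicates lay close together, with a median coefficient of variation within groups of 3.96% for members, 8.998% for all genes tested and 4.24% for the 7437 genes with a mean of at least 5 RPKM.

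**Figure D1:**
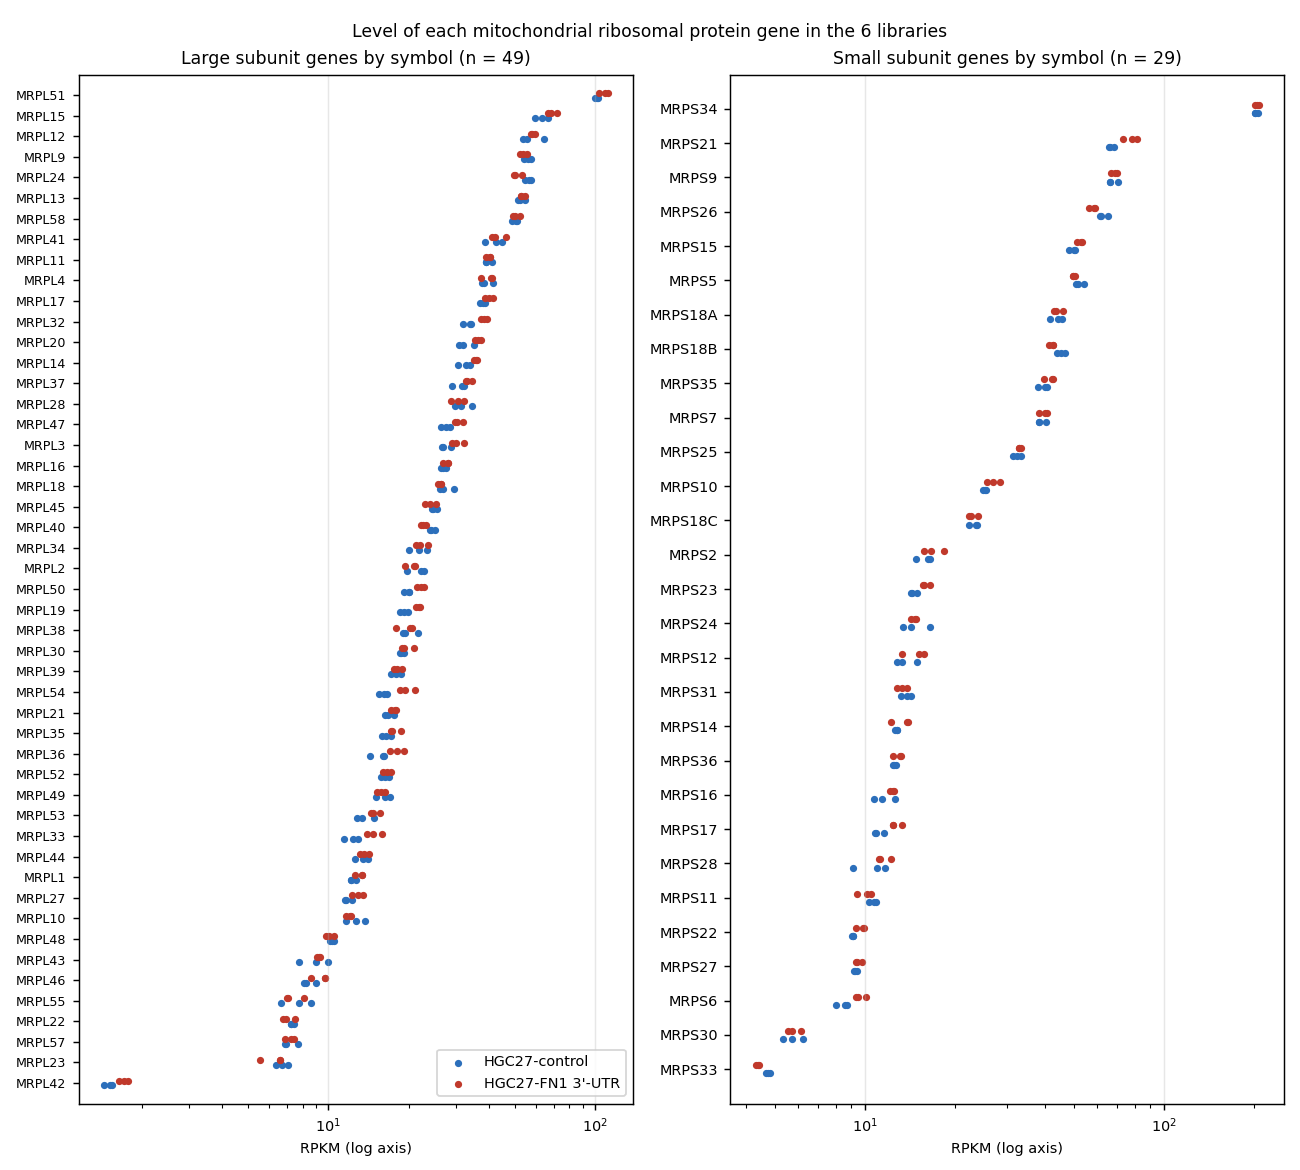
RPKM (log axis) of all 78 members in each library, with HGC27-control in blue and HGC27-FN1 3′-UTR in red and genes ordered by their mean over the 6 libraries. Levels ran from 1.61 RPKM for MRPL42 to 205 RPKM for MRPS34, and the 2 colours lay close together for most genes.

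Most proteins of a ribosome are used in equal numbers, but the mRNA levels of its genes were spread widely. MRPS34, a small subunit protein without a bacterial counterpart whose loss causes a Leigh-like disease, was the highest member at 209, 201 and 206 RPKM in HGC27-FN1 3′-UTR and 202, 203 and 207 RPKM in HGC27-control. The groups overlapped, and its fitted log2 fold change was 0.01 (SE 0.03, adjusted p = 0.882 by limma). MRPL51 was the highest of the large subunit genes, at 108, 111 and 104 RPKM in HGC27-FN1 3′-UTR and 103, 100 and 101 RPKM in HGC27-control. The groups of MRPL51 did not overlap, and its log2 fold change of 0.09 (SE 0.03) did not pass (adjusted p = 0.138). MRPL15, the next of the large subunit genes, averaged 68.9 RPKM ± 2.66 with the FN1 3′-UTR and 63.1 RPKM ± 3.60 in control cells (SD, n = 3), with overlapping groups. At the low end stood MRPL42 (1.71 RPKM ± 0.0676 against 1.51 RPKM ± 0.0538), whose merged exons in the deposited tables span 16393 bases, and MRPL23 (6.24 RPKM ± 0.603 against 6.73 RPKM ± 0.353). The lowest of the small subunit genes were MRPS33 (4.40 RPKM ± 0.0671 against 4.75 RPKM ± 0.0872) and MRPS30 (5.79 RPKM ± 0.295 against 5.76 RPKM ± 0.437). RPKM divides by the merged exons of all transcripts of a gene, so a gene with a long annotated isoform has a lower RPKM for the same number of reads.

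Members of the family are known to be transcribed from promoters that bind ETS factors such as GABPA, the nuclear respiratory factor NRF1, and YY1, so their promoters were searched for a 7-base core of each motif. RefSeq promoters (GRCh38.p14, 250 bases before to 50 bases after the transcript start) were found for 70 of the 78 members, 69 by symbol and MRPS36 by its synonym. The ETS-type core CCGGAAG, on either strand, was found in 30 of the 70 promoters (42.9%), and in 12.2% of the 27305 genes with a promoter. The YY1-type core AAGATGG was found in 24 of 70 (34.3%) and in 7.11% of all genes. The NRF1-type core GCGCATG was found in 7 of 70 (10.0%) and in 5.30% of all genes. At least 1 of the motifs was present in 47 promoters, and 9 held both the ETS-type and the YY1-type core. The subunits were alike in this, with the ETS-type core in 18 of 42 large and 12 of 28 small subunit genes and the YY1-type core in 15 of 42 and 9 of 28. These matches are descriptions of the sequence, and no test was made.

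Positions differed between the motifs. Of 26 YY1-type matches, 17 lay downstream of the transcript start and read in the direction of the gene. None of the 40 ETS-type matches did so, and 28 of them lay within 50 bases of the start on either side. The YY1-type core AAGATGG contains ATG, the sequence of a start codon. Matches at a start of translation were not separated from others, and their part in these positions and shares was not tested. The next stretches of 30 bases are shown because they belong to genes that rose or are discussed with their levels, and because the YY1-type core of the last 6 stands 9 to 24 bases downstream of the start. They read 5′ to 3′ on the strand of the gene, the core is in capitals (CTTCCGG is the ETS-type core and CATGCGC the NRF1-type core on the other strand), and coordinates are GRCh38.p14.
MRPL54, chr19:3762650-3762679, ETS-type: gccactgacgtCTTCCGGaaacgtgcactt
MRPL33, chr2:27771700-27771729, ETS-type: cgggccgtgccCCGGAAGcagttgttgttg
MRPS21, chr1:150293839-150293868, ETS-type: cgtaatttccgCTTCCGGtagtgagaaccc
MRPL32, chr7:42932326-42932355, NRF1-type: tctgtgcctgtGCGCATGctgaaagcaggg
MRPL50, chr9:101398577-101398606, YY1-type: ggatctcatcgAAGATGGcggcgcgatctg
MRPL46, chr15:88467362-88467391, YY1-type: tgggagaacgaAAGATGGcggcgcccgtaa
MRPL51, chr12:6493223-6493252, YY1-type: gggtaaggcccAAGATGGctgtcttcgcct
MRPS18A, chr6:43687764-43687793, YY1-type: gtaggtttttgAAGATGGcggccctcaagg
MRPS18B, chr6:30617852-30617881, YY1-type: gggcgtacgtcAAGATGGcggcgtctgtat
MRPS30, chr5:44808949-44808978, YY1-type: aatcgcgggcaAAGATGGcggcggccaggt

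**Figure D2:**
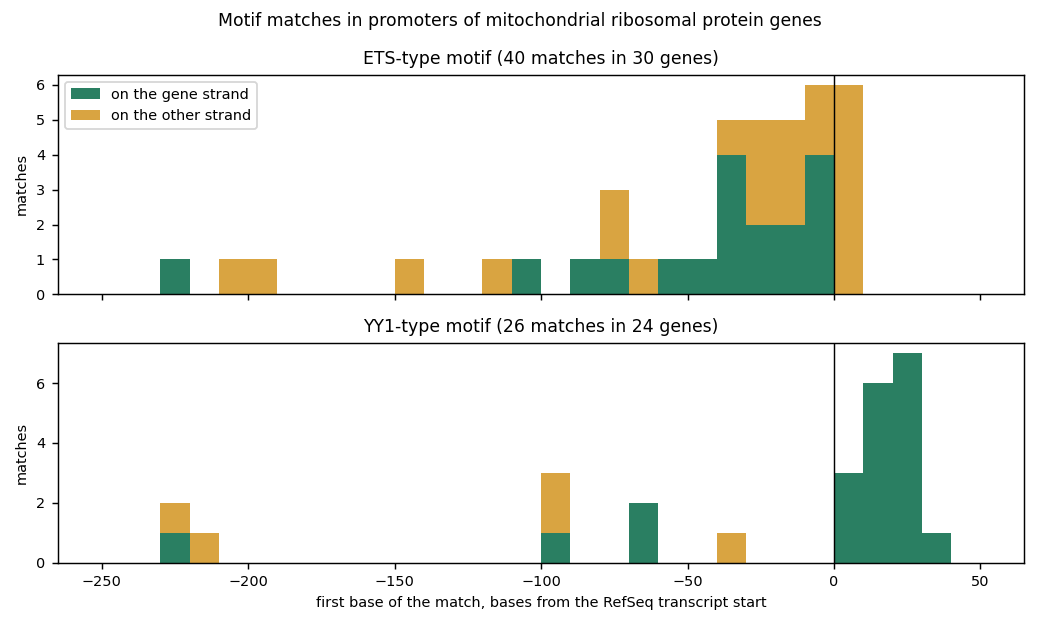
Position of the first base of each ETS-type and YY1-type match (x axis, bases from the RefSeq transcript start) in promoters of the family, as numbers of matches in bins of 10 bases, coloured by strand. The 40 ETS-type matches gather just upstream of the start on both strands, and 17 of the 26 YY1-type matches lie just downstream of it on the strand of the gene.

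The changes in the family were small in size. With limma on log2(RPKM + 0.1) and adjustment over all 23299 genes tested, 7 of 78 members (8.97%) passed an adjusted p of 0.05, against 13% of all genes tested. All 7 rose in HGC27-FN1 3′-UTR (5.62% of all genes tested rose) and 0 fell (7.36% of all genes tested fell). At an unadjusted p under 0.05 by limma stood 26 of the 78 members, 21 as rises and 5 as falls. Over the 23299 genes tested these numbers were 6889 (29.6%), 2794 and 4095. A fall of 1 member (MRPL24) passed when voom was run on recovered reads and with a minimum of 1 RPKM. Calls stood at 5 of 49 large subunit genes (MRPL54, MRPL33, MRPL32, MRPL19 and MRPL50) and at 2 of 29 small subunit genes (MRPS21 and MRPS17). Among the 7437 genes with a mean of at least 5 RPKM, 20.1% were called, 680 as rises and 815 as falls. The share of members called was below that of all genes tested here, and above it with median-ratio scaling (16.7% against 12.99%), with a correction for gene length (19.2% against 13.3%) and with a correction for GC content (25.6% against 19.96%). In those fits the share among genes with a mean of at least 5 RPKM was not taken. At the study's criteria for a differentially expressed gene, a log2 fold change beyond 1 in either direction with an unadjusted P below 0.05, 0 members and 2.47% of all genes tested passed.

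The fitted changes were small on both sides of 0. They ran from −0.14 for MRPL24 to 0.29 for MRPL54 on the log2 scale, with a median of 0.04 over the members and −0.04 over all genes tested (−0.01 for the genes with a mean of at least 5 RPKM). The fitted value was above 0 for 55 members and below 0 for 23. Over all genes tested it was above 0 for 10178 and below 0 for 13121. Among the 7437 genes with a mean of at least 5 RPKM these numbers were 3584 and 3853. Large and small subunit genes had medians of 0.04 and 0.03. The 95% interval of the fold change lay within 1.5-fold in either direction for 78 of 78 members. This also held for 7036 of the 7437 genes with a mean of at least 5 RPKM, and for 14097 of the 23299 genes tested. All 3 libraries of a group lay above all 3 of the other for 28 members (35.9%), against 36% of all genes tested, with 22 members higher and 6 lower in HGC27-FN1 3′-UTR (14.3% and 21.7% of all genes tested). Of the 7437 genes with a mean of at least 5 RPKM this held for 45.1%, with 1538 higher and 1816 lower.

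**Figure D3:**
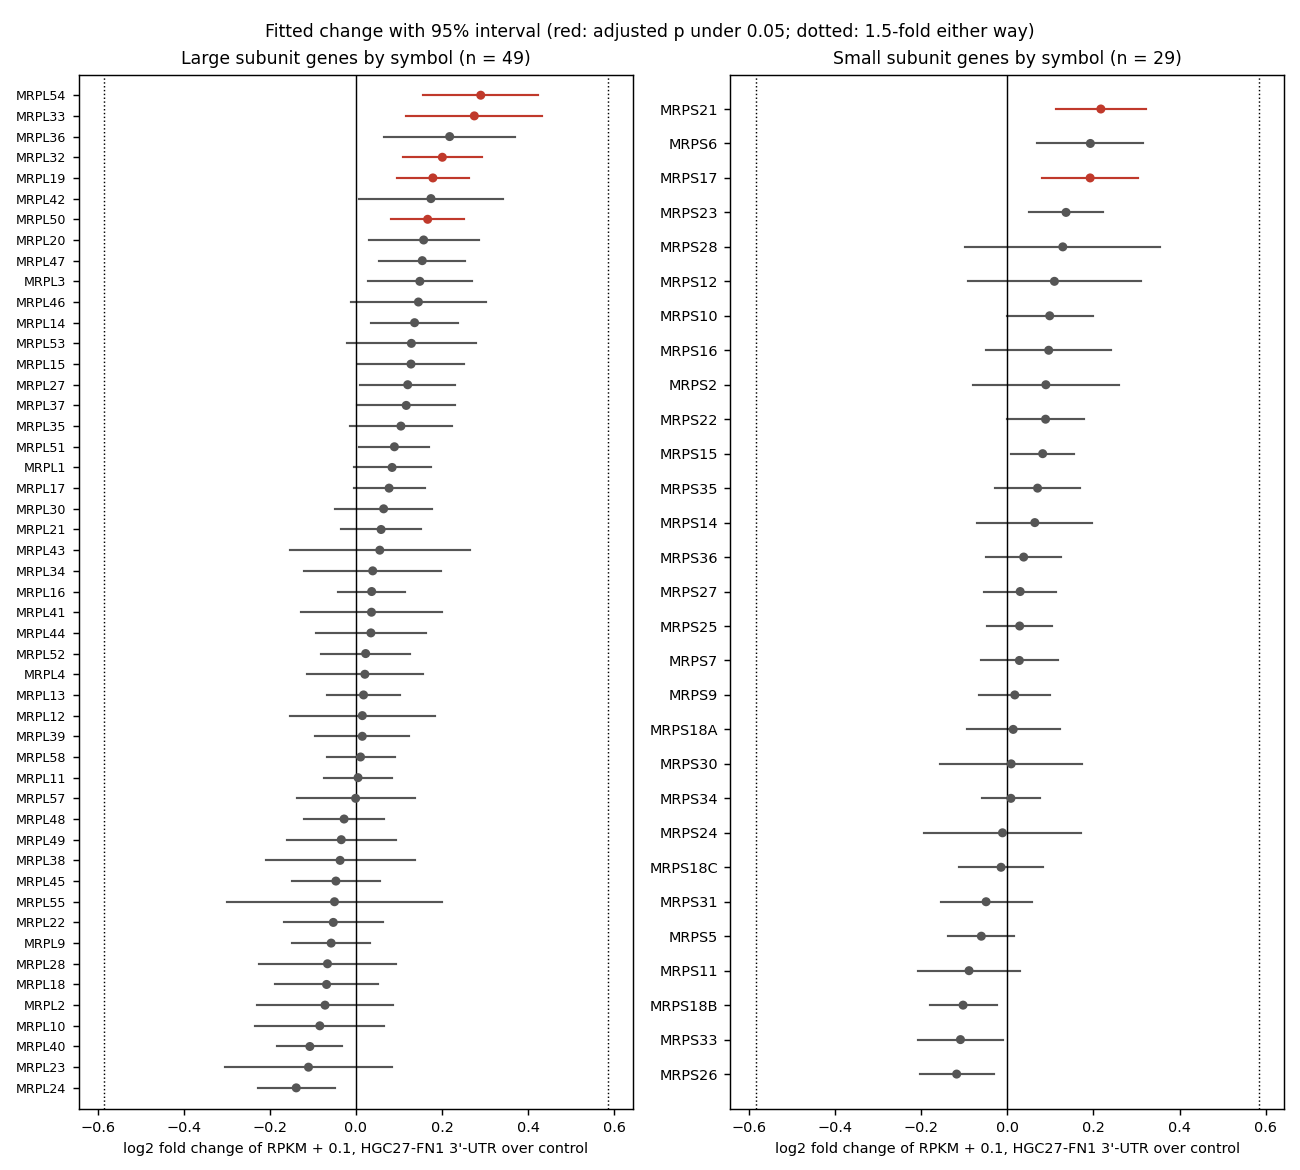
Fitted log2 fold change of RPKM + 0.1 (x axis, HGC27-FN1 3′-UTR over HGC27-control) with its 95% interval for each member, large subunit genes on the left and small subunit genes on the right. The 7 members with an adjusted p under 0.05 are red and all lie above 0, and the intervals of all 78 members lie inside the dotted lines at 1.5-fold.

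Among the large subunit genes, MRPL54 had the highest fold change. MRPL54, a protein without a bacterial counterpart, was at 21.2, 19.3 and 18.6 RPKM in HGC27-FN1 3′-UTR and at 15.4, 16.2 and 16.6 RPKM in HGC27-control. The groups did not overlap, and its log2 fold change was 0.29 (SE 0.06, adjusted p = 0.0226). MRPL33, the counterpart of bacterial L33, was at 13.9, 15.9 and 14.7 RPKM against 11.4, 12.9 and 12.3 RPKM, a log2 fold change of 0.27 (SE 0.07, adjusted p = 0.0429). MRPL33 shares 324 exon bases on the same strand with BRE in the deposited tables, and reads there cannot be told apart. MRPL32, the counterpart of bacterial L32 that is matured by the m-AAA protease before it enters the ribosome, was at 39.3, 38.3 and 37.3 RPKM against 34.0, 31.9 and 34.1 RPKM, a log2 fold change of 0.20 (SE 0.04, adjusted p = 0.0223). The lowest HGC27-FN1 3′-UTR library stood above the highest control library for both genes. MRPL19, the counterpart of bacterial L19, was at 22.1, 21.8 and 21.3 RPKM against 19.2, 18.6 and 19.8 RPKM, a log2 fold change of 0.18 (SE 0.03, adjusted p = 0.0229). MRPL50, which has no bacterial counterpart and was named here because it is the last of the 7, was at 22.8, 22.3 and 21.4 RPKM against 19.98, 19.98 and 19.24 RPKM, a log2 fold change of 0.17 (SE 0.04, adjusted p = 0.0301). Neither of these genes had overlapping groups. MRPL54 and MRPL50 share no exon bases with another listed gene, while MRPL32 and MRPL19 share 24 and 132 bases with genes on the opposite strand, and whether the counting used strand is not given in the sources used here.

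The 2 small subunit genes that rose are both counterparts of bacterial proteins. MRPS21 was at 78.5, 81.6 and 73.4 RPKM in HGC27-FN1 3′-UTR and at 66.4, 65.9 and 68.3 RPKM in HGC27-control, a log2 fold change of 0.22 (SE 0.04, adjusted p = 0.0255). It was also the second highest of the small subunit genes and shares no exon bases with another gene. MRPS17 was at 13.3, 12.4 and 12.4 RPKM against 10.9, 10.8 and 11.6 RPKM, a log2 fold change of 0.19 (SE 0.05, adjusted p = 0.0436). The groups did not overlap for either gene. MRPS17 shares 583 exon bases on its own strand with GBAS and a neighbouring unnamed locus, so part of its reads is uncertain.

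These calls were close to the threshold. With 1 library left out, members called numbered 0, 0 and 4 without HGC27-FN1 3′-UTR replicates 1, 2 and 3. The shares of all genes tested that were called there were 5.38%, 6.05% and 7.30%. Without HGC27-control replicates 1, 2 and 3 the numbers were 1, 0 and 4, and the shares 8.26%, 4.28% and 7.66%. With all 6 libraries 13% of all genes tested were called. MRPL32 was called in 3 of these 6 fits, MRPL54 in 2, MRPL19, MRPL50 and MRPS21 in 1 each, and MRPL33 and MRPS17 in 0. The log2 fold changes of the 7 members stayed between 0.15 and 0.33 in these fits, with adjusted p-values of 0.0231 to 0.141 by limma. With no trend in the prior variance 0 members and 9.68% of all genes tested were called, and the adjusted p of the 7 was 0.058 to 0.0975.

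**Figure D4:**
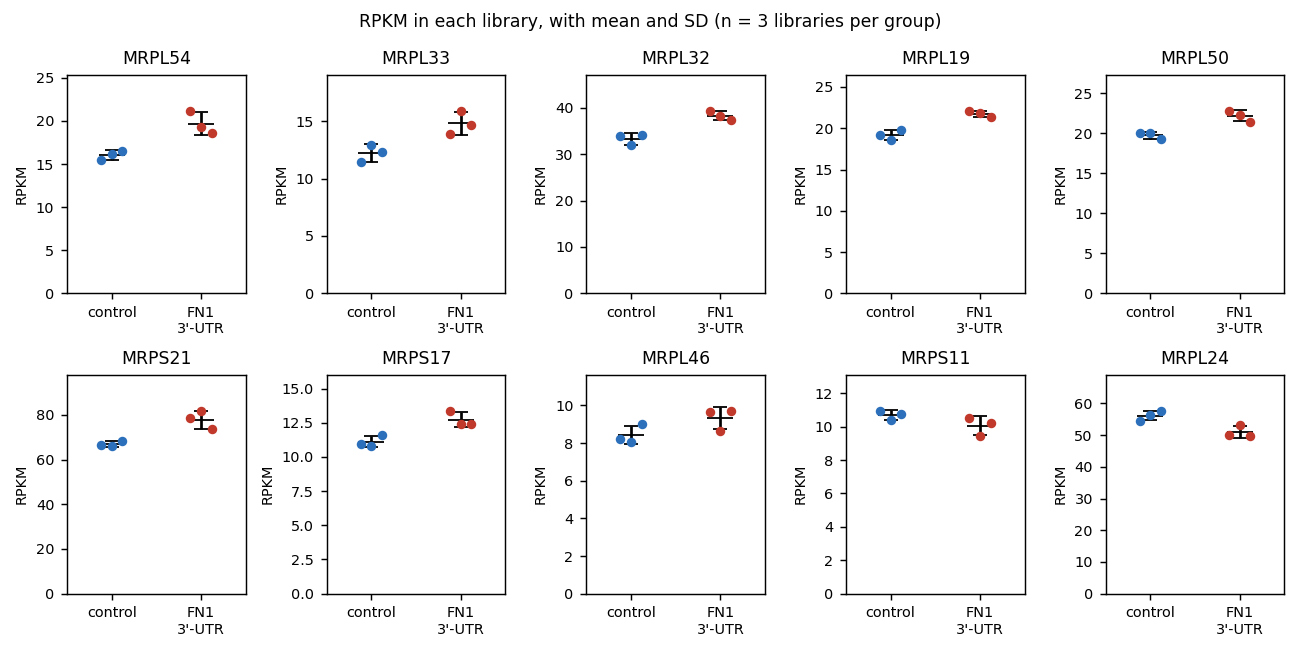
RPKM (y axis, from 0) in each library for the 7 members that rose and for MRPL46, MRPS11 and MRPL24, with the mean and SD of the 3 libraries of each group in black. The 7 that rose show separated groups, with fitted log2 fold changes of 0.17 to 0.29, and MRPL24 is lower in every HGC27-FN1 3′-UTR library.

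No member passed for a fall. MRPL24, a protein near the exit of the peptide tunnel, had the lowest fold change, at 50.1, 53.1 and 49.8 RPKM in HGC27-FN1 3′-UTR and 54.5, 56.4 and 57.5 RPKM in HGC27-control. The groups did not overlap, and its log2 fold change was −0.14 (SE 0.04, adjusted p = 0.0589), which passed with voom on recovered reads and with a minimum of 1 RPKM. Of the small subunit genes, MRPS26 and MRPS18B had log2 fold changes of −0.12 and −0.10 (adjusted p = 0.081 and 0.0878), and MRPS33 had −0.11 (adjusted p = 0.135). The large subunit gene MRPL40 stood at −0.11 (adjusted p = 0.0742). None of their groups overlapped. MRPL40 and MRPS26 were named after their values were seen.

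The proteins of the stalk, which recruits translation factors to the large subunit, gave no call. MRPL12, the counterpart of the bacterial stalk protein L7/L12, was at 57.9, 57.2 and 59.3 RPKM in HGC27-FN1 3′-UTR and at 53.5, 55.3 and 64.4 RPKM in HGC27-control. The control libraries spread on both sides of the others, and the log2 fold change was 0.01 (95% interval −0.15 to 0.18). MRPL11 had a log2 fold change of 0.00 (95% interval −0.07 to 0.08) and MRPL10 of −0.08 (95% interval −0.23 to 0.07). Of 7 genes for proteins of the central protuberance 0 were called and the median log2 fold change was −0.04, and of 6 genes for proteins around the exit tunnel 0 were called and the median was −0.05. At an unadjusted p under 0.05 by limma, 2 genes of the central protuberance and 2 of the exit tunnel passed, and 0 of the stalk. With 13% of all genes tested called and 29.6% at an unadjusted p under 0.05, groups of this size show nothing particular.

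Several members named for inherited disease or for a part in decoding are given by their values. MRPL3, whose defects cause cardiomyopathy, was at 32.1, 30.04 and 29.1 RPKM in HGC27-FN1 3′-UTR and 26.6, 26.9 and 28.9 RPKM in HGC27-control. Its groups did not overlap, and the log2 fold change of 0.15 (SE 0.05) had an adjusted p of 0.107. MRPS22 had 9.73 RPKM ± 0.311 against 9.14 RPKM ± 0.0644, also without overlap, and an adjusted p of 0.168. MRPS12, part of the decoding centre, had overlapping groups at 14.8 RPKM ± 1.31 against 13.7 RPKM ± 1.10. MRPL44, MRPS2, MRPS7 and MRPS16 had log2 fold changes of 0.03, 0.09, 0.03 and 0.10, with overlapping groups in each case.

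MRPS18 exists as 3 paralogs in human cells, which take different places in the ribosome. MRPS18B, found on the small subunit, was lower in every HGC27-FN1 3′-UTR library, at 41.5, 42.6 and 42.7 RPKM against 44.1, 45.3 and 46.9 RPKM. MRPS18A had 44.3 RPKM ± 1.69 against 43.9 RPKM ± 1.96, and MRPS18C, which holds the place of bacterial S18, had 23.0 RPKM ± 0.853 against 23.2 RPKM ± 0.745. The groups overlapped for both. A small subunit symbol does not always mark a small subunit protein, since MRPS18A and MRPS30 are found in the large subunit in structures of the human mitochondrial ribosome. MRPS30 had a log2 fold change of 0.01 (95% interval −0.16 to 0.17). MRPS36, now named KGD4 and known as a component of the 2-oxoglutarate dehydrogenase complex rather than of the ribosome, had 12.9 RPKM ± 0.432 against 12.6 RPKM ± 0.161. With these genes placed by structure there were 51 large and 26 small subunit genes, with 5 and 2 called. The shares were 9.80% and 7.69%, against 13% of all genes tested.

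By origin, 5 of the 46 members with a bacterial counterpart were called and 2 of the 31 that are specific to mitochondria, with median log2 fold changes of 0.06 and 0.02. These are shares of 10.9% and 6.45%, against 13% of all genes tested. The difference between the classes was not tested. Members with the ETS-type core had a median log2 fold change of 0.06 with 3 of 30 called, and those without it 0.03 with 4 of 40 called. Members with the YY1-type core had a median of 0.03 with 2 of 24 called, and those without it 0.04 with 5 of 46 called. For the NRF1-type core the medians were −0.01 for 7 members and 0.04 for 63.

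The balance of the subunits was read from the summed level of their genes in each library. Large subunit genes summed to 1331 RPKM ± 23.9 with the FN1 3′-UTR and 1286 RPKM ± 46.5 in control cells (SD, n = 3), and small subunit genes to 951 RPKM ± 12.4 and 932 RPKM ± 15.0. The ratio of large to small was 1.40 ± 0.0112 against 1.38 ± 0.0291. Groups overlapped for both sums and for the ratio. All members together took 0.540% ± 0.00765 of assigned reads in HGC27-FN1 3′-UTR and 0.525% ± 0.0130 in HGC27-control. These sums were described only, and no test was made.

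MRPL46 and MRPS11 form a head-to-head pair on chromosome 15, and they were chosen after their values were seen. In the GRCh38 coordinates of the deposited tables MRPL46 lies on the minus strand at chr15:88459476-88467419 and MRPS11 on the plus strand at chr15:88467453-88480773. Between these outermost annotated ends lie 33 bases, and the distance between RefSeq transcript starts was not taken. MRPL46, a large subunit protein, was at 9.68, 8.64 and 9.69 RPKM in HGC27-FN1 3′-UTR and 8.21, 8.08 and 8.996 RPKM in HGC27-control, a log2 fold change of 0.15 (SE 0.06, adjusted p = 0.196). MRPS11, the counterpart of bacterial S11, was at 10.5, 9.45 and 10.2 RPKM against 10.9, 10.4 and 10.8 RPKM, a log2 fold change of −0.09 (SE 0.05, adjusted p = 0.29). Groups overlapped for each gene alone. The ratio of MRPL46 to MRPS11 was 0.920, 0.914 and 0.949 in HGC27-FN1 3′-UTR and 0.752, 0.777 and 0.834 in HGC27-control, and here the groups did not overlap. The log2 ratio differed by 0.24. An exact permutation test gave a two-sided p of 0.1, the smallest that 3 against 3 libraries allow, so this design could not reach 0.05. Because the pair was chosen after its values were seen, this p does not serve as a test, and the ratio is a description only. MRPL46 shares 508 exon bases with another gene on its strand and MRPS11 shares 516 with a gene on the opposite strand.

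Sequence composition moved with the fold change, in members as in other genes. Members with a GC content of at most 45% (28 genes) had a median log2 fold change of 0.08 with 4 called, those from 45% to 55% (32 genes) had 0.03 with 2 called, and those above 55% (18 genes) had 0.02 with 1 called. Over the 7437 genes with a mean of at least 5 RPKM, of which 6253 had a GC value, the medians in the same classes were 0.03, −0.02 and −0.04. Rises were called for 14.3% of the members and 14.6% of these genes in the lowest class, 6.25% and 7.81% in the middle class, and 5.56% and 7.07% in the highest, so the members' shares were near those of other genes. After a correction of each library for GC, run on the 17233 genes with a GC value, 14 large and 6 small subunit genes rose and 0 fell, and 6 of the 7 genes above were among them. MRPL50, with a GC content of 35.0%, had a log2 fold change of 0.09 after this correction (adjusted p = 0.0656 by limma). By length of merged exons the members' medians were 0.03 from 1 to 2 kb, 0.06 from 2 to 4 kb and 0.02 above 4 kb. All genes tested had −0.01, −0.04 and −0.05, and genes with a mean of at least 5 RPKM had 0.013, −0.005 and −0.014.

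The number of members called differed with the scaling. As deposited, 43.3% of all calls over the genes tested were rises. With median-ratio scaling, with the correction for gene length and with the correction for GC these shares were 56.0%, 59.4% and 58.9%, and 13, 15 and 20 members were called, a higher share than of all genes tested in each of these fits. Every call of a member in these 3 fits was a rise. The share called among genes with a mean of at least 5 RPKM was 20.1% as deposited and was not taken in these 3 fits.

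**Figure D5:**
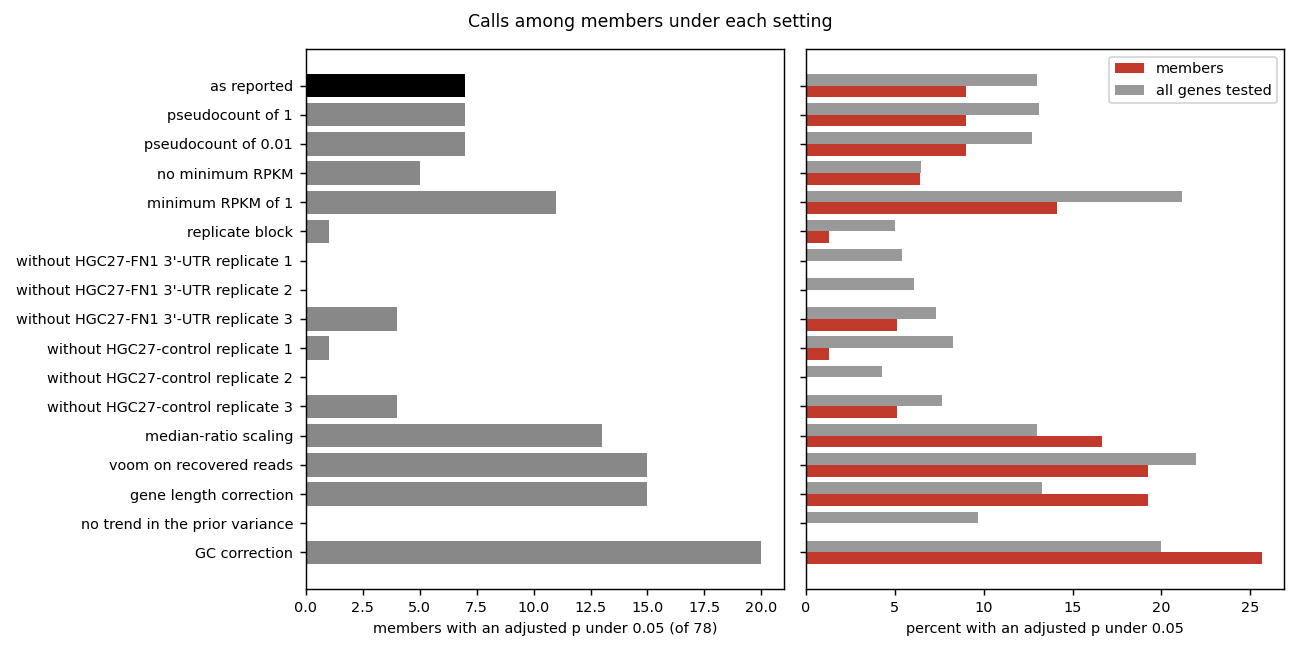
Members with an adjusted p under 0.05 (left, x axis in genes of 78) and the share of members and of all genes tested that passed (right, x axis in percent) under each setting of the fit. Calls of members ran from 0 to 20 against 7 as reported, and the share among members was above that among all genes with median-ratio scaling and with the corrections for gene length and GC. The genes were not matched for level, with a median of 20.1 RPKM for members and 2.04 RPKM for all genes tested.

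Other genes of mitochondrial translation were read from lists of genes. Of 5 mitochondrial ribosomal proteins named under other symbols, AURKAIP1 rose, DAP3 fell, and the median log2 fold change was 0.10. These 2 calls were 40% of the list, against 13% of all genes tested. Groups did not overlap for 3 of the 5 (60%, against 36% of all genes tested). AURKAIP1, a small subunit protein, was at 77.0, 75.8 and 76.0 RPKM in HGC27-FN1 3′-UTR and 67.4, 69.7 and 70.8 RPKM in HGC27-control, a log2 fold change of 0.14 (SE 0.03, adjusted p = 0.0275). DAP3, the GTP-binding protein of the small subunit, was at 34.2, 34.5 and 34.1 RPKM against 38.3, 36.8 and 37.5 RPKM, a log2 fold change of −0.13 (SE 0.03, adjusted p = 0.0273). The groups did not overlap for either of them. With 1 library left out, AURKAIP1 was called in 1 of 6 fits (log2 fold change 0.12 to 0.15) and DAP3 in 0 (−0.15 to −0.12), and DAP3 was not called with median-ratio scaling (−0.10) or the gene length correction (−0.08).

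Lists of assembly and translation factors were read against the same background. Of 26 factors of assembly and ribosomal RNA modification 0 were called by limma, 3 had an unadjusted p under 0.05, and the median was −0.02. Of 15 translation factors SLIRP, which stabilises mitochondrial mRNAs with LRPPRC, rose by 0.19 on the log2 scale (adjusted p = 0.0296), and C12orf65, a release factor for stalled ribosomes, fell by 0.23 (adjusted p = 0.0471). This was 13.3% of the translation factors, against 13% of all genes tested, and groups did not overlap for 6 of the 15 (40.0%, against 36%). SLIRP was called in 1 of the 6 fits with a library left out and C12orf65 in 0. The mitochondrial ribosomal RNAs MT-RNR1 and MT-RNR2 had 232 RPKM ± 42.8 against 266 RPKM ± 18.2 and 3123 RPKM ± 258 against 3194 RPKM ± 230, with overlapping groups, in libraries prepared from mRNA.

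Of 13 measured regulators of mitochondrial transcription, TFB2M rose and NRF1 and MYC fell, with a median of −0.07 over the list. This was 23.1% of the list, against 13% of all genes tested and 20.1% of genes with a mean of at least 5 RPKM. Groups did not overlap for 9 of the 13 (69.2%, against 36% of all genes tested). TFB2M, a transcription factor of the mitochondrial genome, was at 18.8, 17.5 and 18.2 RPKM against 15.6, 14.05 and 16.1 RPKM (log2 fold change 0.25, adjusted p = 0.042). NRF1, a regulator of nuclear genes for mitochondria, was at 3.44, 3.37 and 3.43 RPKM against 3.90, 3.96 and 3.97 RPKM (log2 fold change −0.20, adjusted p = 0.0292). MYC, which drives ribosome production in growing cells, was at 81.1, 78.4 and 81.9 RPKM against 97.4, 102 and 109 RPKM (log2 fold change −0.35, adjusted p = 0.00733). None of these genes had overlapping groups. MYC was called in 6 of the 6 fits with a library left out, and TFB2M (0.19 to 0.29) and NRF1 (−0.21 to −0.19) in 0.

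Cytosolic ribosomal proteins were read in the same way, and so were subunits of the respiratory chain and the ATP synthase. Both lists were taken by gene symbol. Of 84 measured cytosolic ribosomal protein genes 4 rose and 1 fell, with a median log2 fold change of 0.01. The 2 with the highest fold changes were RPL22L1 and RPL26L1, paralogs of RPL22 and RPL26, at 0.54 (SE 0.04, adjusted p = 0.00173) and 0.47 (SE 0.05, adjusted p = 0.00447). The list and its share of calls thus include paralogs. RPL7L1 rose by 0.17 (adjusted p = 0.0135 by limma), and the fall was of RPL12 (−0.15, adjusted p = 0.0409 by limma). Of 79 measured nuclear genes with symbols of the respiratory chain or the ATP synthase, 2 rose and 1 fell, with a median of 0.00. The rises were of the ATP synthase genes ATP5G1 and ATP5E (both 0.16), and the fall was of NDUFB9 (−0.13). RPL22L1 and RPL26L1 were called in 6 of the 6 fits with a library left out, RPL7L1 in 3, RPL12 and ATP5E in 1 each, and ATP5G1 and NDUFB9 in 0. The share of genes called was 8.97% in the mitochondrial ribosomal family and 5.95% in the cytosolic list. It was 3.80% in the list of the respiratory chain and ATP synthase. Groups did not overlap for 35.9%, 25% and 20.3% of their genes. Over all genes tested these shares were 13% and 36%, and over genes with a mean of at least 5 RPKM they were 20.1% and 45.1%. The differences between the families were not tested.

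The pseudogenes of the family were outside the member rule. They numbered 36, of which MRPS31P4 had 1682 reads and MRPS31P5 had 1536 reads summed over the 6 libraries, MRPS18AP1 had 121 and the others had fewer than 100. MRPS31, the parent of the first pair, can share reads with them and is therefore uncertain, and so is MRPS18A. In all, 40 members share exon bases with another listed gene and 38 share none, with 4 and 3 called. These are shares of 10% and 7.89%, against 13% of all genes tested.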

How the data were processed

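The authors prepared strand-specific mRNA libraries from both lines, HGC27-FN1 3′-UTR and its control, and deposited RPKM per gene with the merged exon length, 1 table per library. The submitters' processing notes name Trimmomatic 0.36, STAR 2.5.3a, Subread 1.5.1 with featureCounts, and GRCh38. The annotation release, the strand setting of the counting and the handling of duplicate reads are not given in the sources used here. RPKM multiplied by length gave whole reads for 100% of values (within 0.01 reads). These recovered reads served for depth and for voom only, because the deposited unit is RPKM. A total of 3 reads, the floor of detection, corresponded to 0.081 to 0.183 reads per 1000000, and this covers counting error only.

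Values were analysed as log2(RPKM + 0.1) for genes with at least 0.1 RPKM in 3 or more libraries with limma 3.58.1 in R 4.3.3, with group as the only term, a trend in the prior variance, two-sided tests and Benjamini-Hochberg adjustment over all 23299 genes tested. A fold change on this scale understates that of low genes. A gene was said to rise or fall at an adjusted p under 0.05 and at any fold change. Errors given with ± are SD over 3 libraries and SE are those of the fit. The other software was matplotlib 3.10.9, numpy 2.4.6, pandas 2.3.3 and Python 3.11.15. The fit was run on simulated reads in which 100 genes changed 2-fold and 100 changed 1.5-fold. It called 97 and 95 of these, and 21 of 23190 unchanged genes. With no gene changed it called 0 of 23360. Changes as small as those of the members were not simulated, so this run does not bear on their calls.

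Members and lists were chosen with earlier results of these data known. The genes named were those at the study's criteria, up to 4 called in each direction and the 2 highest and 2 lowest per subunit, stalk, disease, decoding and MRPS18 genes, MRPS30 and MRPS36, and up to 4 called genes per other list. MRPL50, MRPL40, MRPS26, MRPL46 and MRPS11 were added after their values were seen. Promoter sequences are from RefSeq. GC content is that of the GENCODE release 29 transcripts of a gene.

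Alternatives were other pseudocounts (1 and 0.01), no minimum or a minimum of 1 RPKM, a replicate block, each library left out, median-ratio scaling, voom, a gene length correction, no trend, subunits by structure and the study's criteria. The GC correction was chosen after seeing the data.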

Additional observations from a re-analysis of the deposited data

How the results depend on the processing

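Member calls (5 large and 2 small subunit genes higher, 0 lower) depended on the settings. Rises in the large and small subunit were called for 1 and 0 genes with the replicate block, 8 and 5 with median-ratio scaling, 10 and 4 with voom, 10 and 5 with the gene length correction, 0 and 0 with no trend, 14 and 6 with the GC correction, and 0 and 0 at the study's criteria. Small subunit rises numbered 1 with no minimum RPKM and 4 with a minimum of 1 RPKM. A fall of a large subunit gene (MRPL24) was called for 1 gene with a minimum of 1 RPKM and with voom. With 1 library left out, large subunit rises ranged from 0 to 4, large subunit falls were 0, and small subunit rises ranged from 0 to 1.

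Over all genes tested, 1310 rose and 1715 fell, against 564 and 598 with the replicate block, 2042 and 3066 with voom, 2027 rises with the GC correction, and 501 to 927 rises and 470 to 1015 falls with 1 library left out. In the other lists together 9 genes rose and 6 fell. Rises numbered 2 with the block, 17 with median-ratio scaling, 17 with voom, 17 with the length correction, 2 with no trend, 20 with the GC correction and 2 to 8 with 1 library left out. Falls numbered 3 with no minimum RPKM, 10 with a minimum of 1 RPKM, 1 with the block, 2 with median-ratio scaling, 18 with voom, 2 with the length correction, 2 with no trend and 1 to 3 with 1 library left out.

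The median log2 fold change of large subunit genes became 0.0929 with the GC correction (0.02 to 0.07 with 1 library left out), that of small subunit genes 0.0640 with median-ratio scaling, 0.0802 with the length correction and 0.0797 with the GC correction (0.03 to 0.05), and that of all genes tested −0.0030, 0.0028 and 0.0048 with these 3 (−0.0516 to −0.0249). The number of the 78 members with a fitted value above 0 was 55, and 46 to 60 with 1 library left out. Signs were followed for the named members. MRPS18C became 0.0198 with median-ratio scaling and 0.0346 with the length correction, and MRPS30 became −0.0023 with voom and −0.0289 with the GC correction. With 1 library left out, log2 fold changes ranged from −0.0078 to 0.0298 for MRPL11, −0.0371 to 0.0957 for MRPL12, −0.0080 to 0.0722 for MRPL44, −0.0212 to 0.0427 for MRPS18A, −0.0447 to 0.0054 for MRPS18C, −0.0424 to 0.0645 for MRPS30 and −0.0040 to 0.0221 for MRPS34. The cause of these changes was not tested.

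Same-numbered replicates deviated together with correlations of 0.00244, 0.0211 and 0.0103, so the number was not taken to pair the libraries. With the replicate block the only member called was MRPL33 (adjusted p = 0.035 by limma). The other pseudocounts left 7 members called, and with subunits placed by structure the ratio of summed large to small subunit levels was 1.56 against 1.54.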
